A study of Homo sapiens with 12 samples.

Results

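The genes described here encode the G protein beta subunits: GNB1 (ENSG00000078369_at), GNB2 (ENSG00000172354_at), GNB3 (ENSG00000111664_at), GNB4 (ENSG00000114450_at) and GNB5 (ENSG00000069966_at). They were chosen by gene identity, and all 5 were present among the 21996 rows of the deposited array table. TF-1 is a human erythroleukaemia line that depends on a cytokine, here GM-CSF. Its cells carried a puromycin-selectable MSCV retroviral vector, either with GNB1 K89E, in which a lysine is replaced by glutamate, or empty. Each line was sampled 12 h after GM-CSF withdrawal and while kept in GM-CSF, which gave K89E withdrawn, empty vector withdrawn, K89E kept and empty vector kept cells, with 3 arrays per group and 12 in all. The labels name triplicate cultures but do not say whether a line was a clone or a pool, and no group carried unmutated GNB1 in the vector, so the mutation, extra GNB1 and any other lasting difference between the lines cannot be told apart.

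A heterotrimeric G protein has an alpha subunit that binds guanine nucleotide and a beta subunit held tightly to a gamma subunit. When a receptor activates the alpha subunit, the beta-gamma pair is freed and acts on its own effectors, among them phosphoinositide 3-kinases, phospholipase C isoforms and ion channels. Beta subunits fold into a propeller of WD40 blades, and one face of it binds either the alpha subunit or these effectors. GNB1, GNB2, GNB3 and GNB4 are close relatives, whereas GNB5 has diverged and pairs with RGS proteins of the R7 family.

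Between the lines, GNB1 was higher and GNB4 lower in K89E cells, with and without GM-CSF. GNB1 was 1.10-fold and 1.09-fold its empty vector level, and GNB4 0.890-fold and 0.874-fold, after withdrawal and with GM-CSF kept in that order. On withdrawal of GM-CSF, GNB2 fell in K89E cells, a call that was lost in 8 of 21 alternative settings, and its responses were not shown to differ between the lines. GNB3 and GNB5 were not called in any of the 5 comparisons, where a gene was called at a limma adjusted p under 0.05 over all 21996 rows. All levels are intensities that the authors had normalized. Because the brightness of a row depends on its probes, no member's level is set against another's.

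The array medians were 174.3 to 179.9 after withdrawal and 172.6 to 174.3 with GM-CSF kept. GNB1 was among the brightest rows, in place 82 of 21996, at 6582 to 7569 against array maxima of 16466 to 17476. GNB4 was brighter than 94.4% of the rows, GNB2 than 90.7% and GNB5 than 65.6%. GNB3, known for its role in retinal cone cells, was brighter than 50.4% of the rows, at 160.2 to 196, close to the array medians. The table holds no detection calls, so whether GNB3 was expressed cannot be stated. Within groups the log2 SD was 0.02 for GNB1, 0.04 for GNB2, 0.04 for GNB4, 0.06 for GNB5 and 0.07 for GNB3.

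**Figure D1:**
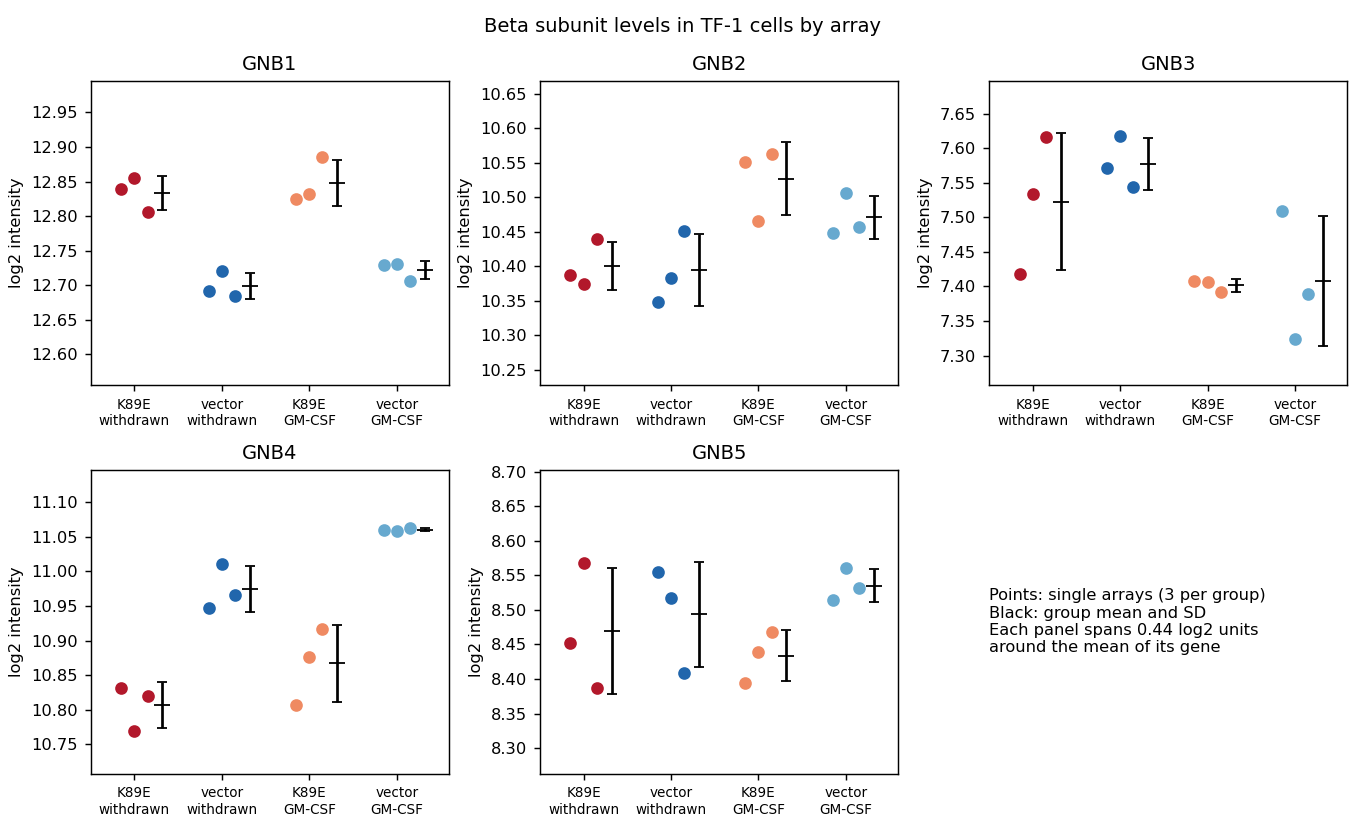
log2 intensity (y axis) of each beta subunit gene on every array, by group (x axis), with single arrays as points and the group mean and SD (n = 3) in black. The panels for GNB1 and GNB4 show K89E and empty vector arrays apart under both conditions, with K89E higher for GNB1 and lower for GNB4.

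GNB1 is the gene carried by the vector, so its level bears on the labels. After withdrawal its intensity was 7325, 7407 and 7163 in K89E cells, against 6617, 6746 and 6582 in empty vector cells. With GM-CSF kept it was 7255, 7293 and 7569 in K89E cells, against 6791, 6795 and 6685 in empty vector cells. All 6 K89E arrays lay above all 6 empty vector arrays. Within a condition, the arrays of the lines lay apart in 25.4% of all rows after withdrawal and in 28.7% with GM-CSF kept. The share of rows parted across both conditions was not counted. After withdrawal the K89E mean was 12.83 ± 0.02 and the empty vector mean 12.70 ± 0.02 on the log2 scale (SD, n = 3 each), so that GNB1 was higher by 0.13 (SE 0.02, limma adjusted p = 0.00129). With GM-CSF kept the means were 12.85 ± 0.03 in K89E cells and 12.72 ± 0.01 in empty vector cells (SD, n = 3 each), and GNB1 was again higher by 0.13 (log2, SE 0.02, limma adjusted p = 0.00261). As folds these were 1.10 (95% interval 1.06 to 1.14) and 1.09 (1.05 to 1.13), or 9.77% and 9.09% more than in empty vector cells.

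The direction of GNB1 goes with the labels. Ranked by the size of the difference between the lines in either direction, GNB1 stood in place 5571 of 21996 after withdrawal and in place 4996 with GM-CSF kept. Its difference was larger than that of 74.7% of all rows after withdrawal and of 77.3% with GM-CSF kept. Where the probes of this row lie in the transcript is not given in the sources used here, and neither is which part of GNB1 the vector carried. The row may therefore have read native transcript, vector transcript or both, and these intensities do not measure the mutant on its own. With a prior variance that did not follow the level of the gene, GNB1 lost its call with GM-CSF kept (adjusted p = 0.0562).

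GNB1 was not called on withdrawal of GM-CSF. The log2 change on withdrawal was -0.01 (95% interval -0.06 to 0.03, limma adjusted p = 0.737) in K89E cells and -0.02 (-0.07 to 0.03, limma adjusted p = 0.562) in empty vector cells, and in both lines the arrays overlapped. The groups ran from K89E kept at the top through K89E withdrawn and empty vector kept to empty vector withdrawn. Only the step between K89E withdrawn and empty vector kept parted arrays of neighbouring groups, by 0.11 between the means.

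GNB4, a relative of GNB1 encoded on chromosome 3 and not carried by the vector, was lower in K89E cells. After withdrawal its intensity was 1823, 1744 and 1807 in K89E cells, against 1974, 2064 and 2001 in empty vector cells. With GM-CSF kept it was 1791, 1880.2 and 1934 in K89E cells, against 2136, 2133 and 2139 in empty vector cells. All 6 K89E arrays lay below all 6 empty vector arrays, and the share of all rows parted in this way was not counted. Within a condition, the lines lay apart in 25.4% of all rows after withdrawal and in 28.7% with GM-CSF kept. After withdrawal the mean was 10.81 ± 0.03 in K89E cells and 10.97 ± 0.03 in empty vector cells (log2, SD, n = 3 each). GNB4 was thus lower in K89E than in empty vector cells by 0.17 on the log2 scale (SE 0.03, limma adjusted p = 0.00298). With GM-CSF kept the means were 10.87 ± 0.06 in K89E cells and 11.06 ± 0.0020 in empty vector cells (log2, SD, n = 3 each), and GNB4 fell by 0.19 (SE 0.03, limma adjusted p = 0.00134). As folds these were 0.890 (95% interval 0.849 to 0.933) and 0.874 (0.834 to 0.917).

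The difference in GNB4 was larger in size than that in GNB1 and ran the other way. By size it stood in place 3877 of 21996 after withdrawal and in place 2235 with GM-CSF kept. Both calls held under each of the 21 alternative settings tried, at adjusted p of 0.00139 to 0.022 after withdrawal and 0.000277 to 0.0135 with GM-CSF kept.

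GNB4 on withdrawal did not pass the test in either line. Its log2 change was -0.06 (95% interval -0.13 to 0.01, limma adjusted p = 0.234) in K89E cells, where the arrays overlapped. In empty vector cells the 3 withdrawn arrays all lay below the 3 kept ones, where 35.7% of all rows had arrays apart. The log2 change there was -0.09 (-0.15 to -0.02, limma adjusted p = 0.0766). This value was called when arrays were centred on their medians (-0.12, adjusted p = 0.0213), in a fit of the empty vector groups alone (adjusted p = 0.0417) and without K89E kept replicate 1 (adjusted p = 0.046). From the top, the groups ran empty vector kept, empty vector withdrawn, K89E kept and K89E withdrawn, and only the arrays of the lowest pair overlapped.

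GNB2 is a widely expressed beta subunit. In K89E cells its intensity was 1339, 1327 and 1389 after withdrawal, against 1501, 1415 and 1512 with GM-CSF kept. In empty vector cells it was 1304, 1336 and 1400.4 after withdrawal, against 1397, 1455 and 1406 with GM-CSF kept. The withdrawn arrays lay below the kept ones in K89E cells, where 31.8% of all rows had arrays apart. In empty vector cells the highest withdrawn array lay just above the lowest kept one.

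On withdrawal GNB2 fell by 0.13 on the log2 scale in K89E cells (SE 0.04, limma adjusted p = 0.0262), with means of 10.40 ± 0.03 after withdrawal and 10.53 ± 0.05 with GM-CSF kept (SD, n = 3 each). As a fold this was 0.916 (95% interval 0.868 to 0.967). In empty vector cells the log2 change was -0.08 (95% interval -0.15 to 0.0020, limma adjusted p = 0.179), with means of 10.39 ± 0.05 after withdrawal and 10.47 ± 0.03 with GM-CSF kept (SD, n = 3 each). The difference between these responses was -0.05 (95% interval -0.16 to 0.06, limma adjusted p = 0.99), so the lines were not shown to differ. The call in K89E cells sat near the threshold. It was lost with a prior variance without a trend (adjusted p = 0.0737), after quantile normalization (-0.09, adjusted p = 0.0827), with array weights (adjusted p = 0.0515) and in a fit of the K89E groups alone (adjusted p = 0.0582). It was also lost without K89E withdrawn replicate 1 or 2 or K89E kept replicate 1 or 3, at adjusted p of 0.074 to 0.106. Between the lines GNB2 was not called, at a log2 difference of 0.0056 (95% interval -0.07 to 0.08, limma adjusted p = 0.951) after withdrawal and 0.06 (-0.02 to 0.13, limma adjusted p = 0.457) with GM-CSF kept.

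The promoters of GNB2 and GNB4 are shown because GNB2 was the member called on withdrawal, in K89E cells and not under every setting, and GNB4 the one called lower in K89E cells without being on the vector. The responses of GNB2 were not shown to differ between the lines. Each runs 5′ to 3′ over 300 bases, from 250 before the transcription start, in RefSeq's GRCh38.p14. GNB2 lies at chr7:100673490-100673789 on the plus strand and GNB4 at chr3:179451421-179451720 on the minus strand. The start used for GNB4 is an internal one, inside the span that the RefSeq table gives the gene. Capitals mark matches, on either strand, to any of 6 motifs: the STAT motif TTCNNNGAA, the GC box GGGCGG, the TATA box TATAAA, the CCAAT box CCAAT, the E-box CACGTG and the CRE TGACGTCA.
GNB2: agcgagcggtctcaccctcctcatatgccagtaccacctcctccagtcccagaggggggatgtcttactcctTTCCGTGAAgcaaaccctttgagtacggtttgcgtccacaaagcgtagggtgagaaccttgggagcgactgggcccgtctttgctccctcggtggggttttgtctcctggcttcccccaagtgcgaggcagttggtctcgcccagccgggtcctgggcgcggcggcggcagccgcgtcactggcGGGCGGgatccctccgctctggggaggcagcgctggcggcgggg
GNB4: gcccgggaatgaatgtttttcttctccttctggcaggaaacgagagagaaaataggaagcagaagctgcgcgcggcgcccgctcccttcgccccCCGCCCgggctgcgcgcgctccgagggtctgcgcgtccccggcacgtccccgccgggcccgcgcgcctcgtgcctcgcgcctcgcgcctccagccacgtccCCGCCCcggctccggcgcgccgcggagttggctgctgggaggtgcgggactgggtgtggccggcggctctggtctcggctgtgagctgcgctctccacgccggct

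The first capitals of the GNB2 window, TTCCGTGAA, match the STAT motif and begin at offset -178, counted from 0 at the first transcribed base. STAT5 is a factor that the GM-CSF receptor activates. The motif was present in 7.66% of the 35116 promoter windows in the RefSeq table. No STAT match was found in the window of GNB4 or of GNB1, or in any of the 3 windows of GNB5. Whether STAT5 has a part in the level of GNB2 was not tested. The second capitals of GNB2 are a GC box at offset 6. The GNB4 window held 2 GC boxes, both on the opposite strand, at offsets -156 and -55, and the GNB1 window also held 2. GC boxes were present in 45% of all windows. No match to the TATA box (11.5% of all windows), CCAAT box (34.6%), E-box (7.26%) or CRE (1.85%) was found in the windows of GNB1, GNB2 and GNB4. CG dinucleotides numbered 24 in GNB2, 43 in GNB4 and 48 in GNB1, where the median window held 14. These matches describe the sequence only, since no factor's binding was measured.

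GNB3 had higher means after withdrawal in both lines, but neither change passed the test. In K89E cells its intensity was 171, 185 and 196 after withdrawal, against 169.8, 169.6 and 168 with GM-CSF kept. In empty vector cells it was 190.2, 196 and 187 after withdrawal, against 182, 160.2 and 168 with GM-CSF kept. The withdrawn arrays lay above the kept ones in both lines, by a narrow gap in K89E cells. Arrays lay apart on withdrawal in 31.8% of all rows in K89E cells and in 35.7% in empty vector cells. The log2 change was 0.12 (95% interval -0.02 to 0.26, limma adjusted p = 0.231) in K89E cells and 0.17 (0.03 to 0.31, limma adjusted p = 0.0791) in empty vector cells. The second of these was called with array weights (0.19, adjusted p = 0.0282) and without empty vector kept replicate 1 (0.22, adjusted p = 0.041). The array medians, near which this row lies, were themselves higher after withdrawal, and their part in these changes was not tested apart from centring, which left 0.14 in empty vector cells. Between the lines the log2 difference was -0.05 (95% interval -0.19 to 0.08, limma adjusted p = 0.673) after withdrawal and -0.0057 (-0.14 to 0.13, limma adjusted p = 0.981) with GM-CSF kept. In the order of its 4 group means, arrays of each pair of neighbours overlapped.

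GNB5, the partner of R7 RGS proteins and best known in neurons, was not called in any comparison, and its highest array was 1.13 times its lowest. After withdrawal its intensity was 350.2, 379.5 and 335 in K89E cells, against 376, 366 and 339.8 in empty vector cells. With GM-CSF kept it was 336, 347 and 354 in K89E cells, against 366, 378 and 369.9 in empty vector cells. The lines overlapped after withdrawal. With GM-CSF kept the K89E arrays all lay below the empty vector ones, where 28.7% of all rows had arrays apart. The log2 difference with GM-CSF kept was -0.10 (95% interval -0.22 to 0.01, limma adjusted p = 0.314), and after withdrawal it was -0.02 (-0.14 to 0.09, limma adjusted p = 0.842). The log2 change on withdrawal was 0.04 (95% interval -0.08 to 0.15, limma adjusted p = 0.722) in K89E cells and -0.04 (-0.16 to 0.07, limma adjusted p = 0.681) in empty vector cells. Arrays of all neighbours in the order of its group means overlapped.

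**Figure D2:**
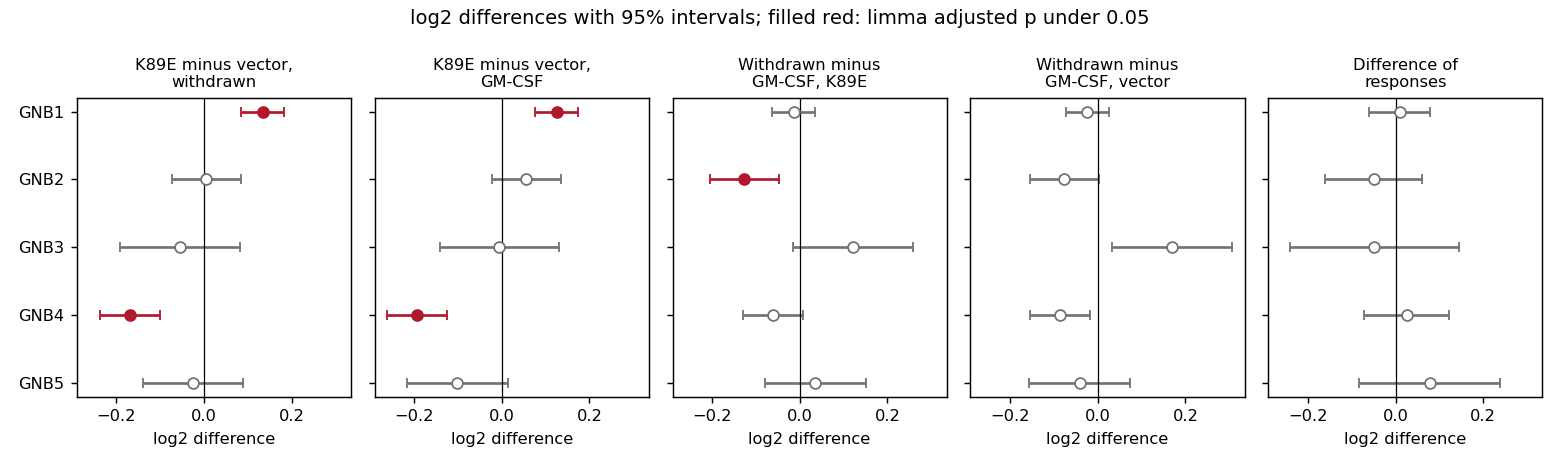
log2 differences (x axis) of the 5 genes (rows) in the 5 comparisons (panels), as points with 95% intervals from limma. Filled red points mark an adjusted p under 0.05, which GNB1 and GNB4 reached between the lines under both conditions and GNB2 on withdrawal in K89E cells.

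Counted together, 2 of the 5 beta subunit genes were called between K89E and empty vector cells after withdrawal, where 12.5% of all rows were. GNB1 was the one called higher (6.52% of all rows) and GNB4 the one called lower (6.01%). Since GNB1 was carried by the vector, its call does not bear on the other members. For 2 members the arrays of the lines lay apart, against 25.4% of all rows. With GM-CSF kept, 2 of 5 were called, against 9.61% of all rows, again GNB1 higher (5.21%) and GNB4 lower (4.39%). Arrays lay apart for 3 members, against 28.7% of all rows. Calls were commoner among bright rows. Of the brightest 25% of rows, to which GNB1, GNB2 and GNB4 belong, 24.8% were called after withdrawal and 20.6% with GM-CSF kept. The median absolute log2 difference of the 5 members was 0.05 after withdrawal and 0.10 with GM-CSF kept, and that of all rows was 0.07 and 0.06.

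For withdrawal, 1 of 5 members was called in K89E cells, against 17.9% of all rows, and it was lower (10.6% of all rows). In the brightest 25% of rows 41.5% were called in K89E cells and 46.3% in empty vector cells. The arrays were apart for 2 members, against 31.8% of all rows. In empty vector cells limma called 0 of 5, with 2 members at an unadjusted p under 0.05, where 20.4% of all rows were called, and the arrays were apart for 2 members, against 35.7%. The median absolute log2 change of the members was 0.06 in K89E and 0.08 in empty vector cells, and that of all rows was 0.08 in both. The shares called among the members on withdrawal were thus near or below those of the whole table. Each group enters more than 1 comparison, so the counts are not independent of each other.

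The test of the difference between both withdrawal responses called 0 of the 5 members, with 0 at an unadjusted p under 0.05 by limma, and 0.0682% of all rows. K89E response minus empty vector response was 0.0090 for GNB1 (95% interval -0.06 to 0.08) and 0.03 for GNB4 (-0.07 to 0.12) on the log2 scale. It was -0.05 for GNB3 (-0.24 to 0.14) and 0.08 for GNB5 (-0.08 to 0.24). These intervals were not adjusted for the number of tests, and the widest was that of GNB3. In each of these genes the interval held differences as large in size as its changes on withdrawal. The responses of the lines were thus not shown to be alike.

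**Figure D3:**
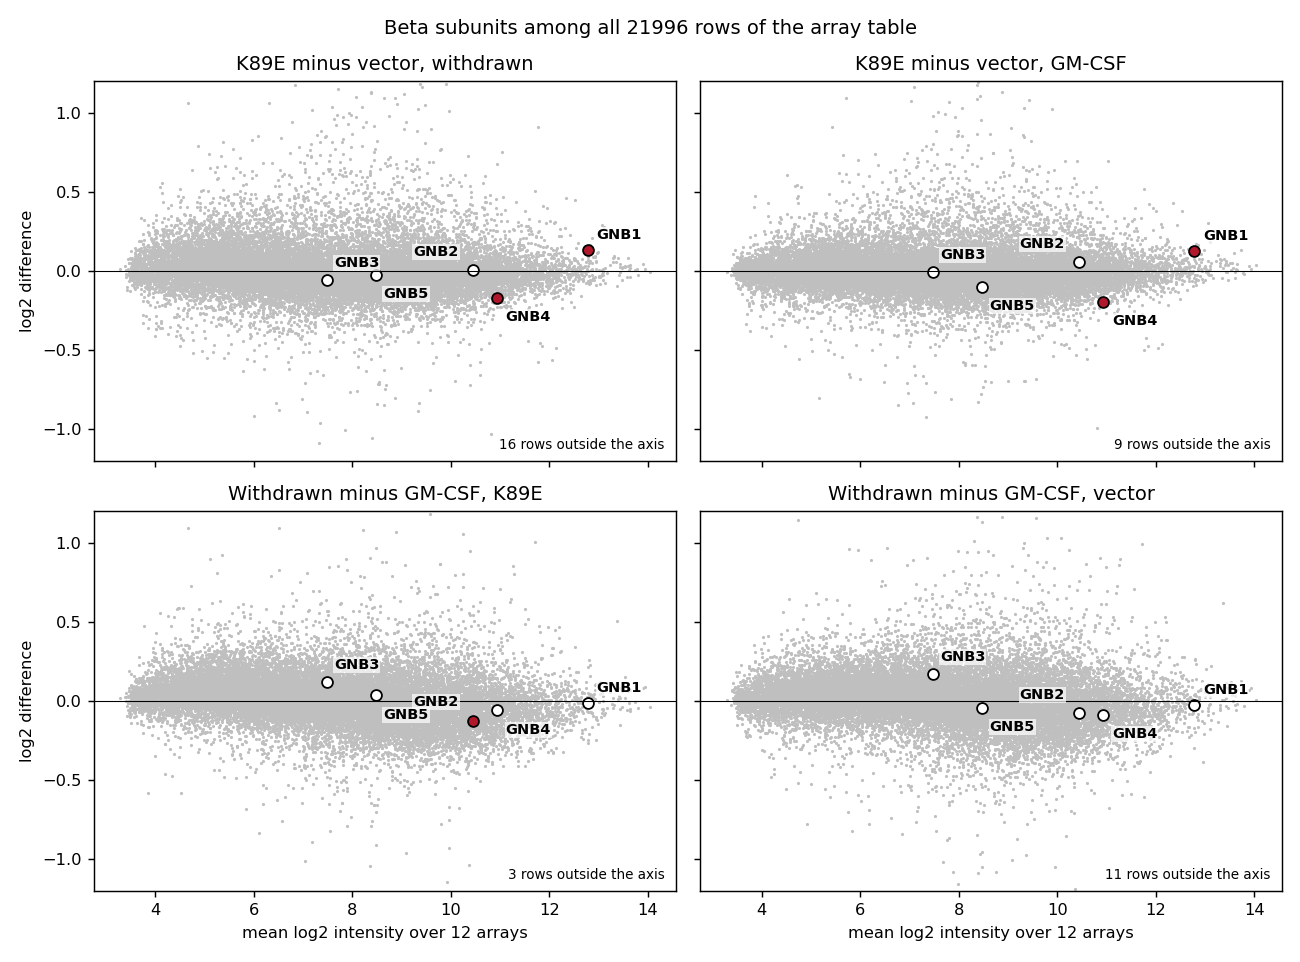
log2 difference (y axis) against mean log2 intensity over 12 arrays (x axis) for all rows (grey) and the 5 beta subunit genes (circles, red where called), in 4 comparisons, with the rows outside ±1.2 counted in each panel. In the upper panels GNB1 lies above 0, at 0.13 in both, and GNB4 below it, at -0.17 and -0.19, and many other rows reach farther from 0.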

How the data were processed

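RNA of 12 TF-1 cultures was measured on arrays from biotin-labelled cRNA, per the labels' protocols. The authors deposited linear-scale intensities that had been normalized by RMA, per the submitters' processing notes. The sources used here do not give the version of RMA, the array type, the probe positions or the genome build. Serial numbers in the array names run through the groups one after another, so processing order and group cannot be told apart.

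Intensities were taken to log2 without a pseudocount. limma 3.58.1 in R 4.3.3 was fitted to all 21996 rows and 12 arrays, with 1 mean per group and a variance prior following the level. Tests were 2-sided. Benjamini-Hochberg adjustment ran over all rows in each of 5 comparisons. The script was tested on simulated data. The SD given with a mean covers the 3 arrays of its group. SEs, intervals and p-values by limma rest on 1 spread per row, shared by all groups and moderated over all rows. An array of another group can therefore move a call. The number of 3 arrays per group limits the precision.

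The table gives Ensembl IDs only. The 5 symbols came with the list of members. 0 of 59792 reference rows hold an Ensembl ID, so lists of partner genes, cell type markers and genes of like pattern, which need symbols, were not analysed here. All 5 members were named, whatever their values. Members, lists and tests were chosen with earlier results of these data known, and the motifs after the levels had been seen. Promoters were matched for 4 of 5 members, and GNB3 was not.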

Additional observations from a re-analysis of the deposited data

How the results depend on the processing

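Each member's 5 log2 differences were recomputed under the alternatives, 520 values in all, of which 493 kept direction and call, 9 lost the call, 5 gained it and 13 changed sign. The sign changes were of members not called in either fit, at adjusted p of 0.845 to 0.999. GNB1 between the lines was 0.11 to 0.15 after withdrawal, called under all 21 alternatives, and with GM-CSF kept its 0.13 lost the call in 1 of 21, the prior variance without a trend (adjusted p = 0.0562), which left 1 member called. For withdrawal in K89E cells 0 members were called without a trend, after quantile normalization, with array weights and with only the 2 groups in the fit, and 0 to 1 without 1 array. In empty vector cells 1 was called after centring on medians, with array weights and with only the 2 groups in the fit, and 0 to 1 without 1 array. The cause was not tested. With 1 array left out, values that changed sign ranged over -0.0173 to 0.034 (GNB2) and -0.0737 to 0.0166 (GNB5) between the lines after withdrawal, -0.0476 to 0.0453 (GNB3) with GM-CSF kept, -0.0259 to 0.0047 (GNB1) and -0.0137 to 0.0766 (GNB5) for withdrawal in K89E cells, and -0.0723 to 0.0010 (GNB5) in empty vector cells. For the difference of responses they were -0.0024 to 0.0281 (GNB1), -0.0997 to 0.0034 (GNB3) and -0.0047 to 0.0506 (GNB4), and array weights gave -0.0054 for GNB1.

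Equal replicate numbers were not shown to pair the arrays. Arrays with the same number had deviations from their group means that correlated at -0.201 to 0.233, where those with different numbers gave -0.21 to 0.2. In 16 of 36 comparisons the best match carried the same number, and chance gives 12. With the replicate block GNB1 stayed at 0.13 in both comparisons of the lines (adjusted p = 0.00279 and 0.00529), and the block moved no call of a member. Fits that left out the dimmest 33.3% of the rows, used a robust prior or added a pseudocount of 16 changed no member's call. GNB3 lay near the array medians, and the table gives no detection calls.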

Other observations

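GNB1 was also set against rows of like brightness, a comparison chosen after its values had been seen and given as a description with no test. The brightest 1% of the table held 220 rows, GNB1 among them. In that set 14 rows had a higher K89E minus empty vector log2 difference than GNB1 after withdrawal and 20 with GM-CSF kept. By size in either direction, 21 rows exceeded GNB1 after withdrawal and 24 with GM-CSF kept. The median absolute difference there was 0.04 under both conditions, against 0.13 for GNB1. For the change on withdrawal the place of GNB1 by size was low. In K89E cells 197 of the 220 rows changed more in size than GNB1, and in empty vector cells 183 did. Of these bright rows 18.2% were called between the lines after withdrawal and 13.2% with GM-CSF kept.

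GNB5 had 3 promoter windows in the RefSeq table, where GNB1, GNB2 and GNB4 had 1 each. The windows differed in base composition, with 5, 37 and 42 CG dinucleotides.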
